A study of Mus musculus with 10 samples.

Results

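The p53 pathway genes described here are *Trp53*, the gene of the transcription factor p53, its inhibitor *Mdm2*, and the target genes *Cdkn1a*, *Ccng1*, *Bax*, *Bbc3*, *Aen*, *Eda2r*, *Phlda3* and *Sesn1*. They were chosen by name, as the 10 genes whose symbol in the authors' table equals a name on this list, out of 25232 genes in the table, and all 10 were found. The RNA came from the spinal cord of female mice of 90 days on a C57BL/6 background (C57BL/6J in the methods), and mRNA libraries were sequenced from 5 wild type (WT) mice and 5 mice with the SOD1G93A genotype. SOD1G93A mice carry a human *SOD1* gene, in a high copy number according to the methods, on top of the mouse's own *Sod1*. The human gene has a mutation of familial amyotrophic lateral sclerosis (ALS), and the mice serve as a model of motor neuron disease. The tissue is the lumbar part of the cord according to the methods, while the labels say only spinal cord. The value used for each gene is the base mean, the authors' mean over all 10 libraries of read counts divided by a size factor for each library. It pools both genotypes, so it gives the level of a gene in this set of cords and no difference between WT and SOD1G93A mice, and it has no spread over mice.

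The p53 protein is held low in unstressed cells because MDM2, a ubiquitin ligase, marks it for degradation, and the *Mdm2* gene is itself a p53 target, which closes a feedback loop. When DNA is damaged or growth signals are disturbed, p53 accumulates, binds a DNA element made of repeated copies of a short sequence, and switches on genes that stop the cell cycle, trigger apoptosis through mitochondria or dampen growth signalling. Neurons no longer divide, and in them the pathway is best known for its death branch, in which the *Bbc3* product PUMA and BAX act at the mitochondrial membrane.

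The label of the tissue was checked against marker genes, with levels given as base mean per kb of merged exons. By the median of each list, oligodendrocyte genes were the most abundant of the cell type markers, at 12482, led by *Mbp* at 37739. All 5 of them were above the median of all genes, with *Mog* the lowest at 3138.5. Gene by gene the lists overlapped, since *Nefl* and *Gfap*, given next, were above *Mog*. Neuronal markers ranged from *Rbfox3* at 601 to *Nefl* at 14045, and astrocyte markers from *Aldh1l1* at 431 to *Gfap* at 13345. The motor neuron markers reached 485 for *Slc18a3*, the vesicular acetylcholine transporter, and were lowest for the transcription factor gene *Isl1* at 11.5. Genes of the *Hox* clusters, which mark the segments of the trunk, ran from *Hoxd11* at 18.9 to *Hoxb8* at 1160. The lumbar origin given in the methods was not tested with them. The forebrain genes *Emx1*, *Lhx2* and *Neurod6* were at 0.455, 4.32 and 36.7, so that *Neurod6* was above *Hoxd11*. *Emx1* had a base mean of 0.993. The p53 pathway genes were read from this mixture of cells, in which the number of cells of a type and the amount of RNA per cell cannot be told apart.

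All 10 p53 pathway genes were above 0, and all 10 had a base mean of at least 10, the minimum used here for a measured gene, as did 63.1% of all genes in the table. Together they summed to a base mean of 7121, against a sum of 22158933 over all genes of the table. Without division by length, the base mean ran from 30.7 for *Eda2r* to 1459 for *Phlda3*, a range of 47.5 times. To compare genes with each other, the base mean was divided by the length of the exons of each gene, merged over its transcripts. On this scale the level ran from 5.22 per kb for *Eda2r* to 936 per kb for *Phlda3*, a range of 179 times. The median of the p53 pathway genes was 199.7 per kb, and the median of the 20399 genes with a base mean above 0 and a known length was 63.4 per kb. Of the 10 genes, 8 were above that median and 4 were in the upper quartile, above 216 per kb.

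**Figure D1:**
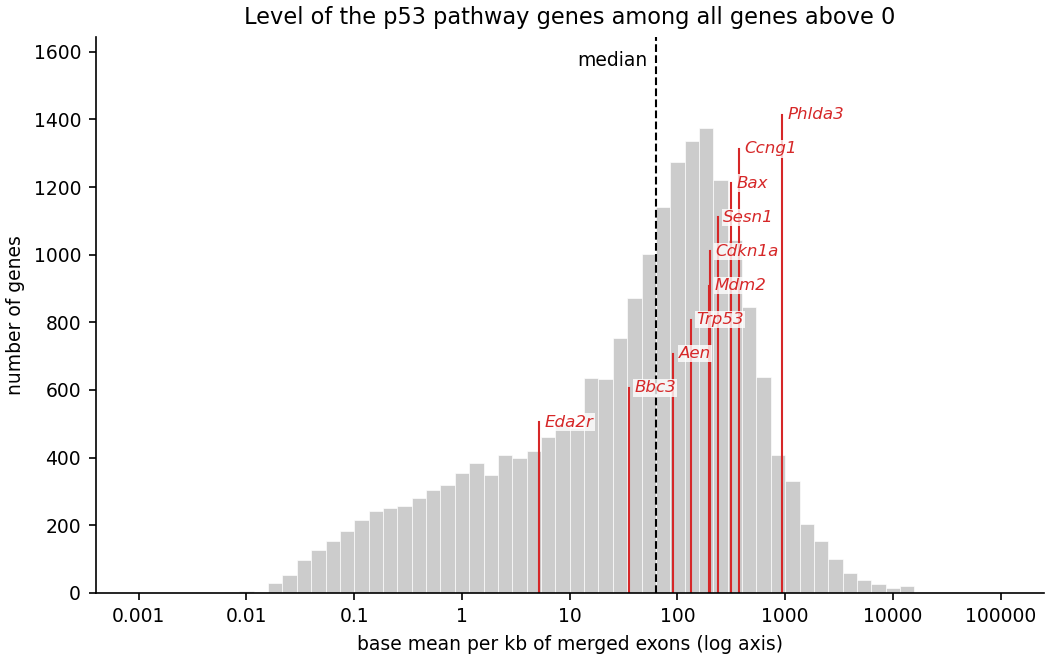
Levels of the p53 pathway genes among all genes. The x axis is the authors' base mean over all 10 libraries per kb of merged exons on a log axis, the y axis is the number of genes, the grey bars are the 20399 genes above 0 with a known length, the dashed line is their median at 63.4 per kb, and each red line marks a p53 pathway gene (line heights only separate the names). *Eda2r* and *Bbc3* lie below the median and the other 8 genes above it, with *Phlda3* farthest to the right at 936 per kb.

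From high to low per kb of merged exons, the order was *Phlda3*, *Ccng1*, *Bax*, *Sesn1*, *Cdkn1a*, *Mdm2*, *Trp53*, *Aen*, *Bbc3* and *Eda2r*. Without values of single mice, it cannot be said which neighbours in this order differ beyond their spread. The widest step was at the bottom, where *Bbc3* was 6.79 times *Eda2r*, followed by 2.59 times from *Bbc3* to *Aen* and 2.49 times from *Ccng1* to *Phlda3*. *Cdkn1a* and *Mdm2* were 1.02 times apart, and the steps between the other neighbours were all below 1.5 times. The place of *Phlda3* at the top and of *Bbc3* and *Eda2r* at the bottom was the same with the longest transcript, with the coding length and with no division by length. Between them the order depended on the length used. With the longest transcript *Bax* rose to number 2 at 449.9 per kb, and with coding length *Cdkn1a* was number 2 at 1500.1 per kb, just above *Ccng1* at 1496.

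*Trp53*, the regulator that gives the pathway its name, lies on chromosome 11 of the mouse genome GRCm38 from 69580359 to 69591873, on the plus strand. Its base mean was 543, which is 134 per kb of merged exons and higher than 64.6% of genes above 0. The gene therefore stood below 6 of the genes of its own pathway on this scale. The related transcription factor genes *Trp63* and *Trp73* were much lower, at 15.2 and 3.34 per kb, so that *Trp53* was 8.87 times the level of *Trp63* and 40.2 times that of *Trp73*. *Trp53* was the highest of the family with each of the 3 length measures. An annotated pseudogene, *Trp53-ps* on chromosome 17, is not among the genes analysed here. In RefSeq, 98 bases separate *Trp53* from its neighbour *Wrap53*, a gene of telomerase RNA trafficking that had a base mean of 473, and the exons of *Trp53* share no base with those of another GENCODE gene.

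*Mdm2* encodes the ubiquitin ligase that inhibits p53 and lies on the minus strand of chromosome 10 from 117688875 to 117710758. It had a base mean of 1006 and a level of 198 per kb, at percentile 73.2 of genes above 0. Per kb of merged exons, *Mdm2* was thus 1.47 times *Trp53*. Its partner *Mdm4*, which binds p53 and blocks its activity without being an efficient ligase of its own, had nearly the same level, 202 per kb of merged exons. *Mdm2* was 0.981 times *Mdm4* on that scale, 0.761 times with the longest transcript and 0.338 times with coding length. The direction was the same with each measure, while its size depended on the length chosen.

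The cell cycle branch was represented by *Cdkn1a* and *Ccng1*. *Cdkn1a*, the gene of the inhibitor p21 that blocks cyclin-dependent kinases, lies on chromosome 17 from 29090976 to 29100727 on the plus strand. It had a base mean of 716 and a level of 201 per kb, at percentile 73.5. The other inhibitor genes of its family were close to it, with *Cdkn1b* at 185 and *Cdkn1c* at 171 per kb, and *Cdkn1a* was 1.09 times the former and 1.17 times the latter. With the longest transcript these ratios were 1.86 and 1.87, and with coding length they were 1.06 and 4.48. An antisense transcript of unknown type shares 273 bases with the exons of *Cdkn1a*, or 7.68% of them. The libraries keep the strand of the RNA, but the strand setting of the counting is not given in the sources used here.

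*Ccng1* encodes cyclin G1, which brings the phosphatase PP2A to MDM2 and so takes part in the feedback on p53. The gene lies on the minus strand of chromosome 11 from 40748552 to 40755311. It was the next highest after *Phlda3* per kb of merged exons, with a base mean of 1319 and a level of 376 per kb, at percentile 85.1. *Ccng1* was 3.91 times *Ccng2*, the gene of cyclin G2, which stood at 96.1 per kb. The ratio was 3.25 with the longest transcript and 2.94 with coding length.

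The death branch held the widest range of levels, from *Bax* among the highest of the 10 genes to *Bbc3* and *Eda2r*, the lowest. *Bax*, whose product forms pores in the outer membrane of mitochondria, lies on the minus strand of chromosome 7 from 45461697 to 45466898. Its base mean of 495 was only the eighth of the 10 genes, but with merged exons of 1576 bases it had a level of 314 per kb, at percentile 82.2. *Bak1*, the other main pore gene, was at 156 per kb and *Bok*, a related pore gene, at 136 per kb, so that *Bax* was 2.01 and 2.31 times their levels. The genes that restrain these pores were higher than *Bax*, with *Bcl2l2* at 864, *Bcl2l1* at 542 and *Mcl1* at 538 per kb, and this held with each of the 3 length measures. *Bcl2*, the founding gene of that group, was at 67.3 per kb of merged exons and so lower than *Bax*, a direction that turned with coding length, where *Bax* was 0.987 times *Bcl2*. A readthrough gene on the same strand, *Gm45808*, shares 192 bases with the exons of *Bax*, or 12.2% of them, so the count of *Bax* is uncertain over these bases. The same holds for *Bcl2l2*, whose exons share 594 bases, or 13.3% of them, with *Gm20521* on the same strand.

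*Bbc3*, the gene of PUMA, a small protein that frees BAX and BAK from their inhibitors, lies on chromosome 7 from 16308393 to 16318205 on the plus strand. With a base mean of 75.2 and a level of 35.4 per kb it was at percentile 41.2 of genes above 0. Among genes of the same class of small activators, *Bad* at 214 and *Bid* at 63.2 per kb were higher than *Bbc3* with each length measure, and *Bik* at 2.05 per kb was lower with each. *Pmaip1*, the gene of the p53 target NOXA, was at 26.2 per kb, and *Bmf*, *Hrk* and *Bcl2l11* were at 33.6, 21.8 and 22.2 per kb. These 4 genes were lower than *Bbc3* per kb of merged exons or of the longest transcript and higher per kb of coding length, so their order against *Bbc3* is not settled by these data.

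*Aen* encodes a nuclease that digests DNA during apoptosis and lies on chromosome 7 from 78895854 to 78911209 on the plus strand. It had a base mean of 532 and a level of 91.8 per kb, at percentile 56.7. The related nuclease gene *Isg20*, known for its induction by interferon, lies 2187 bases from *Aen* in RefSeq and was at 13.8 per kb, so that *Aen* was 6.66 times its level. *Isg20l2* was at 103 per kb of merged exons, where *Aen* was 0.887 times its level, and the direction turned with the longest transcript (1.04 times) and with coding length (1.95 times).

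*Eda2r*, the gene of a receptor of the tumour necrosis factor family for the ligand ectodysplasin A2, was the lowest of the 10 genes on every scale tried. It lies on the minus strand of the X chromosome from 97333840 to 97377216. Its base mean was 30.7 and its level 5.22 per kb, at percentile 23.4. Its ligand gene *Eda* was higher, at 13.8 per kb. *Edar*, the receptor for the other ectodysplasin form, and *Edaradd*, the adaptor of EDAR, were lower still, at 0.925 and 0.459 per kb, with base means of 3.37 and 3.06. These directions were the same with each of the 3 length measures. A pseudogene, *Gm18111*, lies within the span of *Eda2r* and is not among the genes analysed here.

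*Phlda3* and *Sesn1* act on growth signalling. *Phlda3*, whose product is a small lipid-binding protein that competes with the kinase AKT for the cell membrane, lies on chromosome 1 from 135766119 to 135769136 on the plus strand. It had the highest level of the 10 genes, with a base mean of 1459 and 936 per kb, at percentile 94.9 of genes above 0. Of its relatives, *Phlda1* was at 133 and *Phlda2* at 0.106 per kb, so that *Phlda3* was 7.06 times *Phlda1*, and *Phlda2*, with a base mean of 0.119, was close to 0. *Phlda3* is also the gene with the shortest merged exons of the 10, at 1559 bases, and its rank among all genes was lower without division by length, at percentile 81.9.

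*Sesn1* encodes a sestrin, which restrains the growth regulator mTORC1 when amino acids are scarce. The gene spans 98490 bases of chromosome 10, from 41809935 to 41908424 on the plus strand, the longest span of the 10 genes. It had a base mean of 944 and a level of 237 per kb, at percentile 76.9. *Sesn2* was at 127 per kb, and *Sesn1* was 1.87 times its level with merged exons and with coding length. *Sesn3* was at 63.1 per kb of merged exons, where *Sesn1* was 3.76 times its level, but with coding length *Sesn1* was 0.875 times *Sesn3*. In RefSeq, *Armc2* lies 27 bases past *Sesn1*, with a base mean of 134, and the exons of *Sesn1* share no base with another GENCODE gene.

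**Figure D2:**
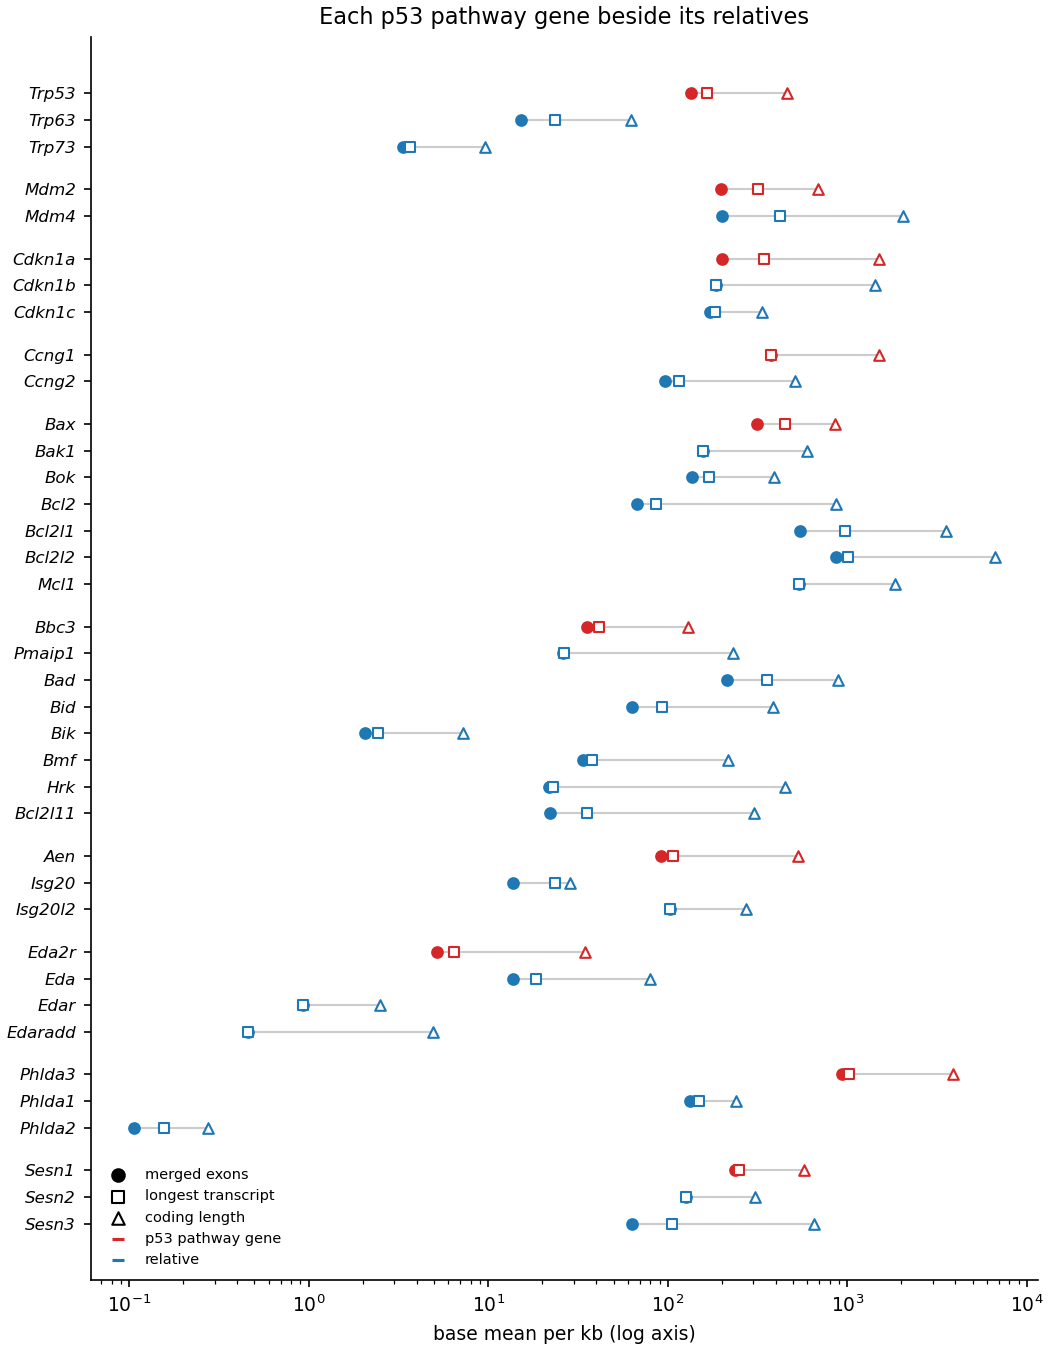
The p53 pathway genes (red) beside their relatives (blue). The x axis is the authors' base mean over all 10 libraries per kb on a log axis, each row is a gene, and the symbols are the 3 length measures, merged exons (filled circle), longest transcript (square) and coding length (triangle), joined by a grey line; where the circle and the square fall together only the square is seen. *Trp53* lies to the right of *Trp63* and *Trp73* and *Phlda3* to the right of *Phlda1* and *Phlda2* with each measure, whereas *Bcl2l1*, *Bcl2l2* and *Mcl1* lie to the right of *Bax*.

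Of the 28 pairs of a p53 pathway gene and a relative, the p53 pathway gene was the higher in 20 per kb of merged exons, and 21 of the 28 pairs had the same direction with all 3 length measures. The pairs that turned were *Bax* with *Bcl2*, *Bbc3* with *Pmaip1*, *Bmf*, *Hrk* and *Bcl2l11*, *Aen* with *Isg20l2*, and *Sesn1* with *Sesn3*. All of these but *Aen* with *Isg20l2* were among the 20, so fewer p53 pathway genes were the higher with coding length. *Bax* and *Bbc3* had the most relatives, and pairs of the same gene share its level. Other genes around the pathway were counted from lists of 69 genes, of which 62 had a base mean of at least 10 and 40 were above the median of all genes per kb. Their median level was 74.0 per kb, against 199.7 per kb for the 10 p53 pathway genes. For comparison with the counts of each list below, 63.1% of all genes in the table reached a base mean of 10. Among genes above 0 with a known length, 76.6% did. Both p53 relatives passed the minimum of 10. Among the regulators of p53, 15 of 16 passed, the highest per kb of merged exons being *Kat5*, an acetyltransferase gene, at 457 and the lowest *Cdkn2a*, the gene of the MDM2 inhibitor ARF, at 1.74 per kb and a base mean of 2.04. All 7 further cell cycle targets passed, from *Gtse1* at 9.76 to *Plk3* at 196 per kb, which places *Cdkn1a* and *Ccng1* above each of them on this scale.

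All 10 further death targets passed the minimum, but only 3 of them were above the median of all genes per kb. They ran from *Tnfrsf10b*, a death receptor gene, at 5.22 per kb to *Ei24* at 365 per kb, and their median was 41.4 per kb, between *Bbc3* and *Aen*. Of the repair and metabolism targets, 8 of 10 passed, with *Gls2*, a glutaminase gene, the highest at 320 per kb. The lowest, *Sco2*, had a base mean of 0.474, and 91.8% of its exon bases are shared with other annotated genes, so its count is uncertain. In the BCL-2 family 11 of 12 genes passed, from *Bik* at 2.05 to *Bcl2l2* at 864 per kb. Of the 12 close relatives of the p53 pathway genes, 9 passed, with *Cdkn1b* the highest at 185 per kb and *Phlda2* the lowest.

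The starts of the genes were searched for the p53 consensus element. The windows are those of RefSeq on GRCm38.p6 and run from 250 bases before to 50 bases after each annotated start, and all 10 genes matched by symbol, with 15 windows. They do not cover every annotated start, since RefSeq begins *Bbc3* at 16308398 and the windows of *Bbc3* lie at internal starts from 16309583 on. A match was a pair of 10-base copies of the p53 consensus, each with its core intact (C, then A or T at 2 positions, then G), 0 to 13 bases apart, with at most 3 mismatches outside the cores. The consensus reads the same on both strands, so a search of either strand finds all matches. Matches were found in 7 of the 15 windows, which belong to 6 genes, *Cdkn1a*, *Bax*, *Sesn1*, *Trp53*, *Aen* and *Bbc3*. Among the 18645 genes of the table with a window, 6.89% had a match, and among their 22374 windows 5.99%. A gene with several windows has more chances of a match, and of the 6 p53 pathway genes with a single window 2 had one, *Trp53* and *Bax* (33.3%), against 6.05% of the 15858 genes with a single window, a count chosen after seeing the data. Several of the 10 genes are textbook targets of p53 and were listed by name for that, so their share describes a known set. The search counted 18 further target genes, fewer than the further targets listed above. Of these 18, 2 had a match, *Tigar* and *Gtse1*, and of 16 regulators 1 had, *Mdm4*. These genes are named here because the counts were small, after their values were seen.

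The best match of each of the 6 genes, and the ungapped match of *Cdkn1a*, are shown so that the elements can be read against each other, 5′ to 3′ on the strand of the gene, with the cores of each pair in capitals.
Cdkn1a: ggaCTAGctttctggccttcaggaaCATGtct
Cdkn1a without gap: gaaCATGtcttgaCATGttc
Bax: aggCAAGctttgaaCTTGcgg
Sesn1: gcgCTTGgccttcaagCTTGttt
Trp53: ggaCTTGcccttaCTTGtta
Aen: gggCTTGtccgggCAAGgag
Bbc3: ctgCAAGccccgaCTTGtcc

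The element of *Cdkn1a* was the closest to the consensus. Its stretch of 42 bases at chr17:29090906-29090947 on the plus strand holds 2 matching pairs that share a copy, a pair with 0 mismatches whose copies are 12 bases apart and a pair with 1 mismatch and no gap. It lies before the upstream start of *Cdkn1a* and 2822 bases before the downstream start, whose own window held no match. The match of *Bax*, at chr7:45467079-45467099 on the minus strand, had 2 mismatches and a gap of 1 base, and lies outside the gene, 181 bases before its start. A pair that overlaps it, 5 bases apart, also had 2 mismatches, and a pair with 3 mismatches and a gap of 11 bases, at chr7:45466873-45466903, reaches into an exon of *Bax*. The match of *Sesn1*, at chr10:41887253-41887275 on the plus strand, had 2 mismatches and a gap of 3 bases, and lies in an intron, 164 bases before an internal start of the gene. The window at its upstream start held no match.

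The best matches of the other 3 genes had 3 mismatches and no gap. That of *Trp53* itself, at chr11:69580284-69580303 on the plus strand, lies between *Wrap53* and *Trp53*, 56 bases before the start, and a pair that overlaps it had 3 mismatches and a gap of 13 bases. That of *Aen*, at chr7:78895937-78895956 on the plus strand, lies in an exon, 10 bases after the upstream start and 102 bases before the downstream start, and it is counted in both windows because they overlap. That of *Bbc3*, at chr7:16309486-16309505 on the plus strand, lies in an intron, 78 bases before an internal start.

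No matching pair was found in the windows of *Mdm2*, *Ccng1*, *Phlda3* and *Eda2r*, which says only that these letters are not in these windows. *Mdm2* and *Ccng1* each had 1 copy without a mismatch. At least 1 such copy was found in 7 of the 10 p53 pathway genes and in 8.60% of all genes with a window. The copy of *Mdm2*, gaaCTTGcct, is at chr10:117710935-117710944 on the minus strand, and that of *Ccng1*, gggCAAGcct, at chr11:40755462-40755471 on the minus strand. *Eda2r* had 5 copies with an intact core, each with mismatches, and *Phlda3* had 0. The 4 genes without a matching pair had a median level of 287 per kb of merged exons, and the 6 genes with one had a median of 168 per kb. The former ran from 5.22 per kb for *Eda2r* to 936 per kb for *Phlda3*, a range that holds all of the latter. With at most 2 mismatches the genes with a match were *Bax*, *Sesn1* and *Cdkn1a*, at 314, 237 and 201 per kb, so these medians depend on the limit. A link between match and level was not tested. The share of G and C in the windows had a median of 60.2% over the 10 genes and 56.2% over all genes, and it ranged from 50.3% in *Eda2r* to 76.0% in *Bbc3*.

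**Figure D3:**
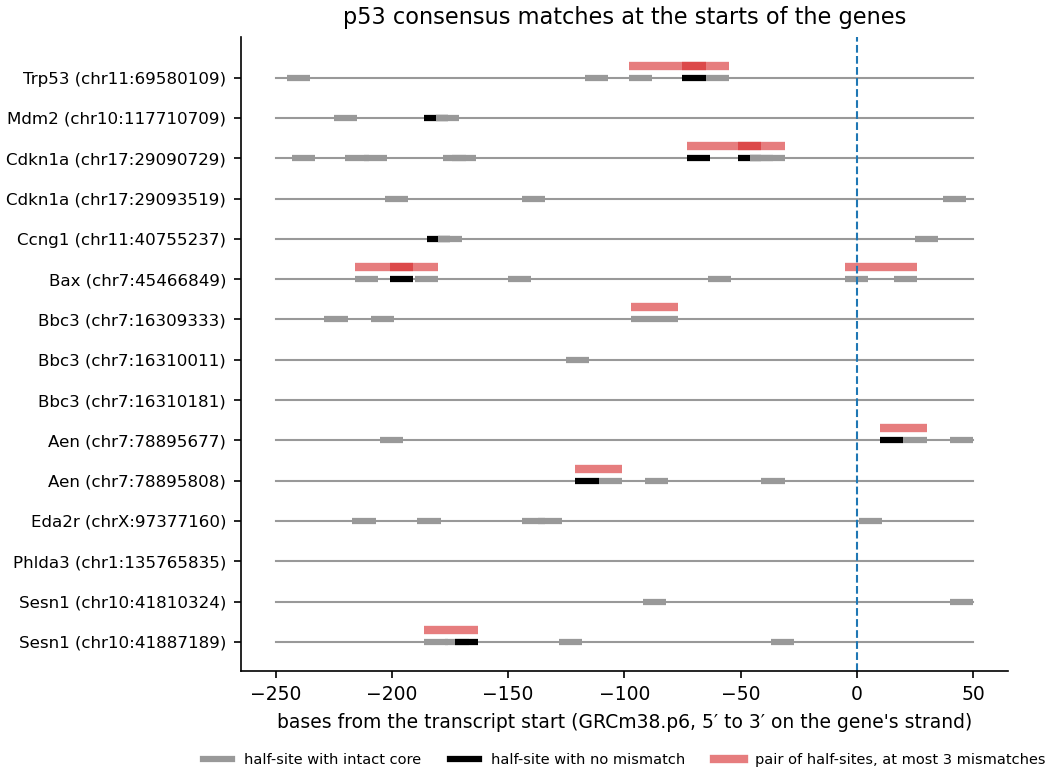
Matches to the p53 consensus in the 15 windows of the 10 p53 pathway genes. The x axis is the position in bases from the annotated transcript start (dashed line), each row is a window named by its gene and the coordinate of its lowest base on GRCm38.p6, grey boxes are 10-base copies with an intact core, black boxes are copies without a mismatch, and red bars are pairs with at most 3 mismatches. Red bars are seen in 7 windows, and the windows of *Mdm2*, *Ccng1*, *Phlda3* and *Eda2r* have none.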

How the data were processed

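Per the study's methods and the submitters' processing notes, stranded mRNA libraries were made from the spinal cord RNA, low-quality and short reads were removed with Fastp, the others were aligned to mm10 with HISAT2 2.1.0, and uniquely mapped reads were counted on genes with featureCounts 2.0.2. The gene annotation is not given in the sources used here. The authors deposited the outcome of their DESeq2 comparison, in which the base mean is a signal averaged by the authors over all 10 libraries after division by size factors. The other columns hold the authors' fold changes, their errors, test statistics and p-values for SOD1G93A against WT mice, and were not used. Values of single libraries were not used here, so depth per library is unknown and there is no test, SD or n.

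Symbols were matched to GENCODE M21 (GRCm38), in which 24355 of 25232 genes had a length. The level is the base mean per kb of merged exons, and a percentile is the share of genes above 0 with a lower level. Genes were named by rule: the 10 p53 pathway genes, overlapping genes and their pseudogenes, the highest and lowest of each list, and markers under a base mean of 1. Other genes named are relatives on the same lists, neighbours, or were picked once their values were known. Some genes covered by the rule are not reported here. The members and lists were chosen with earlier results of these data known. Alternatives were other lengths, other sets of genes to rank against, other minimum base means and other limits for a match, and the count of genes with a single window was added after seeing the data. The search was tested on simulated data, the outcome of which is not given here. Python 3.11.15, numpy 2.4.6, pandas 2.3.3 and matplotlib 3.10.9 were used.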

Additional observations from a re-analysis of the deposited data

How the results depend on the processing

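Of 14 alternatives, 12 left their result within 1.5 times the value reported. With at most 2 mismatches in place of 3, the number of p53 pathway genes with a match at a start fell to 3 (*Bax*, *Sesn1* and *Cdkn1a*), and 2.25% of all genes had one, because fewer matches are allowed. Counting only genes with a single window, an alternative chosen after seeing the data, gave 2 genes with a match among the 6 that have a single window. With no gap 4 genes had a match, against 0.601% of all genes, and with at most 4 mismatches 6 genes had one, against 15.4% of all genes. Ranked against the genes that reach a base mean of 10, *Aen* was below the median, and among all genes with those at 0, *Bbc3* was above it. Of the 45 pairs of p53 pathway genes, 42 kept their order with the longest transcript, 40 with coding length and 38 with no division by length. No paired analysis was possible because the results come from no test and the base mean pools all libraries. Depth per library and the spread between mice are unknown, and a level in whole cord says nothing about the cell type that makes the RNA.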

Other observations

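Markers of further cell types, some of them from outside the cord's own tissue, were also measured, which bears on the mixture from which the p53 pathway genes were read. The Schwann cell gene *Pmp2* was at 15.3 per kb of merged exons, and markers of dorsal root ganglion neurons ran from *Scn10a* at 10.9 to *Prph* at 712 per kb, the latter a gene that motor neurons also express. Skeletal muscle genes ran from *Myh4* at 33.8 to *Acta1* at 163 per kb, where *Bbc3* and *Eda2r* stood at 35.4 and 5.22 per kb. Microglial genes ran from *Tmem119* at 207 to *C1qa* at 1458 per kb, endothelial genes from *Pecam1* at 101 to *Cldn5* at 501, ependymal genes from *Tmem212* at 36.7 to *Foxj1* at 319, and genes of oligodendrocyte precursors from *Cspg4* at 63.3 to *Olig2* at 505. The part of these cells in the levels of the p53 pathway genes was not tested.

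Among the erythrocyte genes, *Hbb-bs*, *Hbb-bt*, *Hba-a1* and *Hba-a2* were listed at 0, while *Alas2*, the first enzyme of haem synthesis in red cells, had a base mean of 137. Only uniquely mapped reads were counted, and the reason for these values of 0 was not tested. They are therefore not read as absence of the RNA. *Malat1*, a nuclear RNA known for its abundance in many tissues, was listed at a base mean of 6.76, below each of the 10 p53 pathway genes, while *Actb* was at 17684. *Malat1* and *Actb* were picked once their values were known.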
